A study of Mus musculus with 3 samples.

Results

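The 56 genes described here encode the machinery of bone morphogenetic protein (BMP) and transforming growth factor beta (TGF-beta) signalling, and were taken by name from the 21938 protein-coding genes of the mouse annotation. They comprised 27 ligands of the TGF-beta superfamily, 1 extracellular protease (Bmp1), 12 receptors, 4 secreted antagonists, 8 Smads and the 4 Id genes. Most ligands of this family act as secreted dimers that bring together type I and type II receptor kinases. The activated receptors phosphorylate Smad proteins, which enter the nucleus with Smad4. Antagonists bind ligands outside the cell, and Id genes, which encode inhibitors of basic helix-loop-helix factors, are direct targets of the BMP branch. In mouse embryonic stem cells, BMP signals acting through Id proteins are known to sustain self-renewal together with leukaemia inhibitory factor.

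The data came from F123 cells, a male hybrid mouse embryonic stem cell line from an S129/Jae and CAST cross, kept on feeder fibroblasts and moved to gelatin for at least 2 passages before harvest. ChIP-seq was carried out for H3K27me3, the histone mark of Polycomb repressive complex 2, and for RNA polymerase II with a phosphate on serine 5 of its C-terminal repeats, named Pol2-S5p, or on serine 7, named Pol2-S7p. Pol2-S5p is found at starts of transcription, Polycomb-bound ones included, and Pol2-S7p accompanies productive transcription. Each mark had 1 library of untreated cells of this 1 line, so no value below has a replicate, and the lists of enriched regions separate neither the parental alleles nor single cells.

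The lists held 17342 H3K27me3 regions, 29222 Pol2-S5p regions and 22320 Pol2-S7p regions in mm10 coordinates, with median widths of 3400, 2000 and 2200 bp, and with no read counts, so that the depth behind a region is unknown here. A promoter was the window of 2 kb centred on an annotated start, and a mark was scored as present when one of its regions reached into the window by at least 1 bp. Following the classes of the study, a promoter with both polymerase forms and without H3K27me3 was called Active, one with all 3 marks PRCa, one in which Pol2-S5p and H3K27me3 occurred and Pol2-S7p was lacking PRCr, and one with no mark Inactive. For genes with several starts, the start best covered by Pol2-S5p was used. As a check of the cell type, all 12 pluripotency genes examined (Pou5f1, Sox2 and Nanog among them) carried both polymerase forms, 7 as Active and 5 as PRCa. Of 14 markers of the feeder fibroblasts, none was Active, 2 (Pdgfra and Twist1) were PRCa, 5 were PRCr, 5 were Inactive and the collagen genes Col1a1 and Col1a2 had H3K27me3 and neither polymerase form.

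The sequence just upstream of the start is shown for 8 members, chosen with their values known, to show how the density of the dinucleotide CpG varied between and within promoter states. A RefSeq promoter (GRCm38.p6) was matched by symbol for 38 of the 56 members. Bmp2, Bmp3, Bmp7, Gdf3, Gdf5, Gdf6, Gdf9, Amh, Tgfb3, Bmp1, Acvrl1, Tgfbr3, Nog, Fst, Smad2, Smad4, Smad7 and Id1 had no match. Each line gives the 250 bases before the RefSeq start, read 5′ to 3′ on the strand of the gene, with every CpG in capitals.
Acvr2a, Active receptor promoter with 49 CpG, chr2:48813859-48814108, + strand: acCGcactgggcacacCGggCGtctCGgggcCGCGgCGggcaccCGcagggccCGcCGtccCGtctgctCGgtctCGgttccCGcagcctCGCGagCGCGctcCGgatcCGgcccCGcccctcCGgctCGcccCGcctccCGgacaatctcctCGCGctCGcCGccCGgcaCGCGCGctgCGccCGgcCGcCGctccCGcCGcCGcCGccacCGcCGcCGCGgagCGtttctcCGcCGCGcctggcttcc
Tgfbr1, PRCa receptor promoter with 29 CpG, chr4:47352972-47353221, + strand: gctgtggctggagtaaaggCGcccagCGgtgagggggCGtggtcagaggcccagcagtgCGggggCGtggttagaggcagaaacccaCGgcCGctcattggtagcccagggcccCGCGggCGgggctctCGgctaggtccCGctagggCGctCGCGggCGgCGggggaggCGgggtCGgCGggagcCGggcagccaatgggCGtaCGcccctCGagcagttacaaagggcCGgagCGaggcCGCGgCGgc
Bmp4, PRCa ligand promoter with 11 CpG, chr14:46390670-46390919, - strand: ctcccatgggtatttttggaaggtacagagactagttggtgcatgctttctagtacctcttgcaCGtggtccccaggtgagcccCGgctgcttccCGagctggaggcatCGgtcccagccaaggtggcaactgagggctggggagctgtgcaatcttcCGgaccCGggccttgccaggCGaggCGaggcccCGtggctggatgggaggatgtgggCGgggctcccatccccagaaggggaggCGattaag
Gdf10, PRCr ligand promoter with 35 CpG, chr14:33923337-33923586, + strand: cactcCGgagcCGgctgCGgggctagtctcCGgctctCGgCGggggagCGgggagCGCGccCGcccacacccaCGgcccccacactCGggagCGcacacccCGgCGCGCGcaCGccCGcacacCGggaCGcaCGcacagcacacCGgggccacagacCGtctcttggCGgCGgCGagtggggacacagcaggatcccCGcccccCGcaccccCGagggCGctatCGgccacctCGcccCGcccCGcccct
Inhba, PRCr ligand promoter with 3 CpG, chr13:16011601-16011850, + strand: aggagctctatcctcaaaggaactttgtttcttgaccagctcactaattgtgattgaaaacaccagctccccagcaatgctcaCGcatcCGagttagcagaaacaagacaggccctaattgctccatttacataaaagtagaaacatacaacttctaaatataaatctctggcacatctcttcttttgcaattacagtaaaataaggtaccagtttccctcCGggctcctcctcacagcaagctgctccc
Mstn, Inactive ligand promoter with 3 CpG, chr1:53061390-53061639, + strand: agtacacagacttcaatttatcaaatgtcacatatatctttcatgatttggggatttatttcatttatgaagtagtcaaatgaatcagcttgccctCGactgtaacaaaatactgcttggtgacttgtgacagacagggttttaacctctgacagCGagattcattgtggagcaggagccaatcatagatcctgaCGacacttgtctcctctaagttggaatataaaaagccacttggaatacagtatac
Bmp10, Inactive ligand promoter with 3 CpG, chr6:87428744-87428993, + strand: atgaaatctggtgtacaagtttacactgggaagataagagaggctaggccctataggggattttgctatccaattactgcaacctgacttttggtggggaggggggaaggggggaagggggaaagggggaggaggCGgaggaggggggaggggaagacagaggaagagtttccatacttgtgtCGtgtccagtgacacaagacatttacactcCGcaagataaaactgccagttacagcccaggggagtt
Bmp15, Inactive ligand promoter with 2 CpG, chrX:6320725-6320974, - strand: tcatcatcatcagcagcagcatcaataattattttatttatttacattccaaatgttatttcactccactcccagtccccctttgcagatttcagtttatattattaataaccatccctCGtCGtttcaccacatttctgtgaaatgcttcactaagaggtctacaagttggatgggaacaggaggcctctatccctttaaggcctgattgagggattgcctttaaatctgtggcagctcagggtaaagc

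The Acvr2a, Tgfbr1 and Gdf10 sequences are dense in CpG, whereas those of Inhba, Mstn, Bmp10 and Bmp15 hold 2 or 3 each, and Bmp4 lies between them. Inhba stood apart from the other matched PRCr promoters, which held 20 (Gdf7), 24 (Grem1), 32 (Acvr1c) and 35 (Gdf10) CpG. Taking the CpG-richest promoter of each gene, the median was 21.5 CpG per 250 bases over the 38 matched members and 6 over all 27025 genes of the RefSeq table. GGCGCC, a GC-rich motif bound by BMP-activated Smads at Id1, reads the same on both strands and contains a CpG itself. It occurred in the 250 bases of a promoter of 10 of the 38 members (26.3%), namely Gdf1, Bmpr1a, Bmpr2, Tgfbr1, Chrd, Grem1, Smad5, Smad9, Id2 and Id4, against 10.8% of all genes of the table. These shares were not compared at like CpG density, so the part of CpG density in them was not tested. The Gdf1 match lay at a promoter 14042 bp from the start used here and the promoter nearest to that start had none, while the other matches lay at promoters up to 1048 bp from the start used.

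Over the whole window of 2 kb, the ratio of observed to expected CpG had a median of 0.63 over the 56 members and 0.40 over all protein-coding genes. By state, the median was 0.72 in the 37 PRCa members against 0.60 in all PRCa genes, 0.58 in the 9 PRCr members against 0.48 in all PRCr genes, 0.59 in the 5 Active members against 0.56 in all Active genes, and 0.34 in the 4 Inactive members against 0.14 in all Inactive genes. The highest ratios among members were those of Acvr2a (1.06) and Smad2 (1.05), and the lowest was that of Amh (0.098), a PRCa promoter. By role, Smads (0.81) and receptors (0.78) had higher medians than ligands (0.53).

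With all regions counted, most of the pathway carried H3K27me3 together with polymerase. A total of 37 of the 56 members (66.1%, 95% exact Clopper-Pearson interval 52.2 to 78.2%) were PRCa, against 23.9% of all protein-coding genes. This share fell to 14.3% of members (8 genes), against 8.01% of all genes, when only regions above the median score of each list were kept, and to 14 of the 56 genes, against 10.4% of all genes, without H3K27me3 regions over 10 kb. Intervals here cover counting error only. They treat genes as separate draws, whereas the members were chosen by name, so an interval beside a share is a description and not a test. H3K27me3 touched 47 member promoters (83.9%, 71.7 to 92.4%), against 37.7% of all protein-coding genes. Pol2-S5p touched 51 (91.1%, 80.4 to 97.0%, against 69.9%) and Pol2-S7p touched 42 (75.0%, 61.6 to 85.6%, against 60.4%). Polymerase alone was the less usual state, with 5 Active members (8.93%, 2.96 to 19.6%) against 35.9% of all protein-coding genes. The Active count rose when H3K27me3 regions over 10 kb were left out, as given at the end. Of the 5, Gdf9 and Smad4 were Active only at starts of noncoding transcripts.

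The 9 PRCr members (16.1%, 7.62 to 28.3%) were set against 7.66% of all genes, which the interval includes. They were the ligand genes Bmp3, Gdf6, Gdf7, Gdf10, Inhba and Tgfb3, the protease gene Bmp1, the receptor gene Acvr1c and the antagonist gene Grem1. The Active members were the ligands Gdf3 and Gdf9, the type II receptor Acvr2a, Smad4 and Id1. Gdf5, a ligand of joint development, had H3K27me3 alone, a state held by 6.02% of all genes, and the ligands Bmp5, Bmp10, Bmp15 and Mstn were Inactive, against 23.5%. No member had H3K27me3 and Pol2-S7p without Pol2-S5p (0.173% of all genes), Pol2-S5p only (2.46%) or Pol2-S7p only (0.406%). Among promoters with Pol2-S5p, H3K27me3 was found at 46 of 51 members (90.2%, 78.6 to 96.7%) and at 45.1% of protein-coding genes with Pol2-S5p. In all 37 PRCa members H3K27me3 and Pol2-S7p shared bases of the window, as they did in 99.6% of all PRCa genes, and whether they lay on the same allele or in the same cell was not tested.

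**Figure D1:**
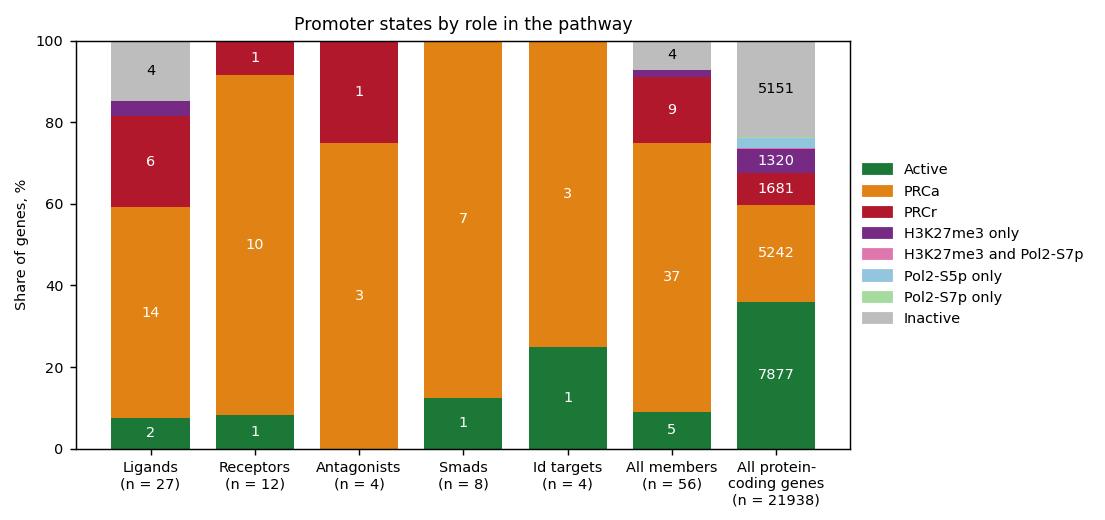
Share of genes (vertical axis, %) in each promoter state for ligands, receptors, antagonists, Smads, Id targets and all 56 members, with all protein-coding genes at the right; numbers in the bars are gene counts and the 1 protease (PRCr) is counted only in the bar of all members. PRCa makes up 37 of the 56 members and 5242 of the 21938 protein-coding genes.

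The states were spread unevenly over the roles, in small counts. Over all protein-coding genes, 23.9% were PRCa, 7.66% PRCr, 35.9% Active, 23.5% Inactive and 6.02% had H3K27me3 only. Pol2-S5p was present at 69.9% of them and Pol2-S7p at 60.4%. Among ligands, 14 of 27 were PRCa, 6 PRCr, 2 Active, 4 Inactive and 1 had H3K27me3 only, so that all Inactive members were ligands. Of the 12 receptors, 10 were PRCa, 1 PRCr and 1 Active, and every receptor promoter carried Pol2-S5p. Among Smads, 7 of 8 were PRCa and all 8 carried both polymerase forms. None of the Smads stayed PRCa when only regions above the median score were kept. Smad1 was then Active, and Smad2, Smad4 and Smad7 were Inactive. Smad3 and Smad6 had H3K27me3 only, Smad5 had Pol2-S7p only and Smad9 had Pol2-S5p only. The antagonists comprised 3 PRCa genes and 1 PRCr gene, and the Id genes 3 PRCa genes and 1 Active gene. With so few genes per role the intervals of the PRCa share overlapped: 31.9 to 71.3% for ligands, 51.6 to 97.9% for receptors and 47.3 to 99.7% for Smads.

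**Figure D2:**
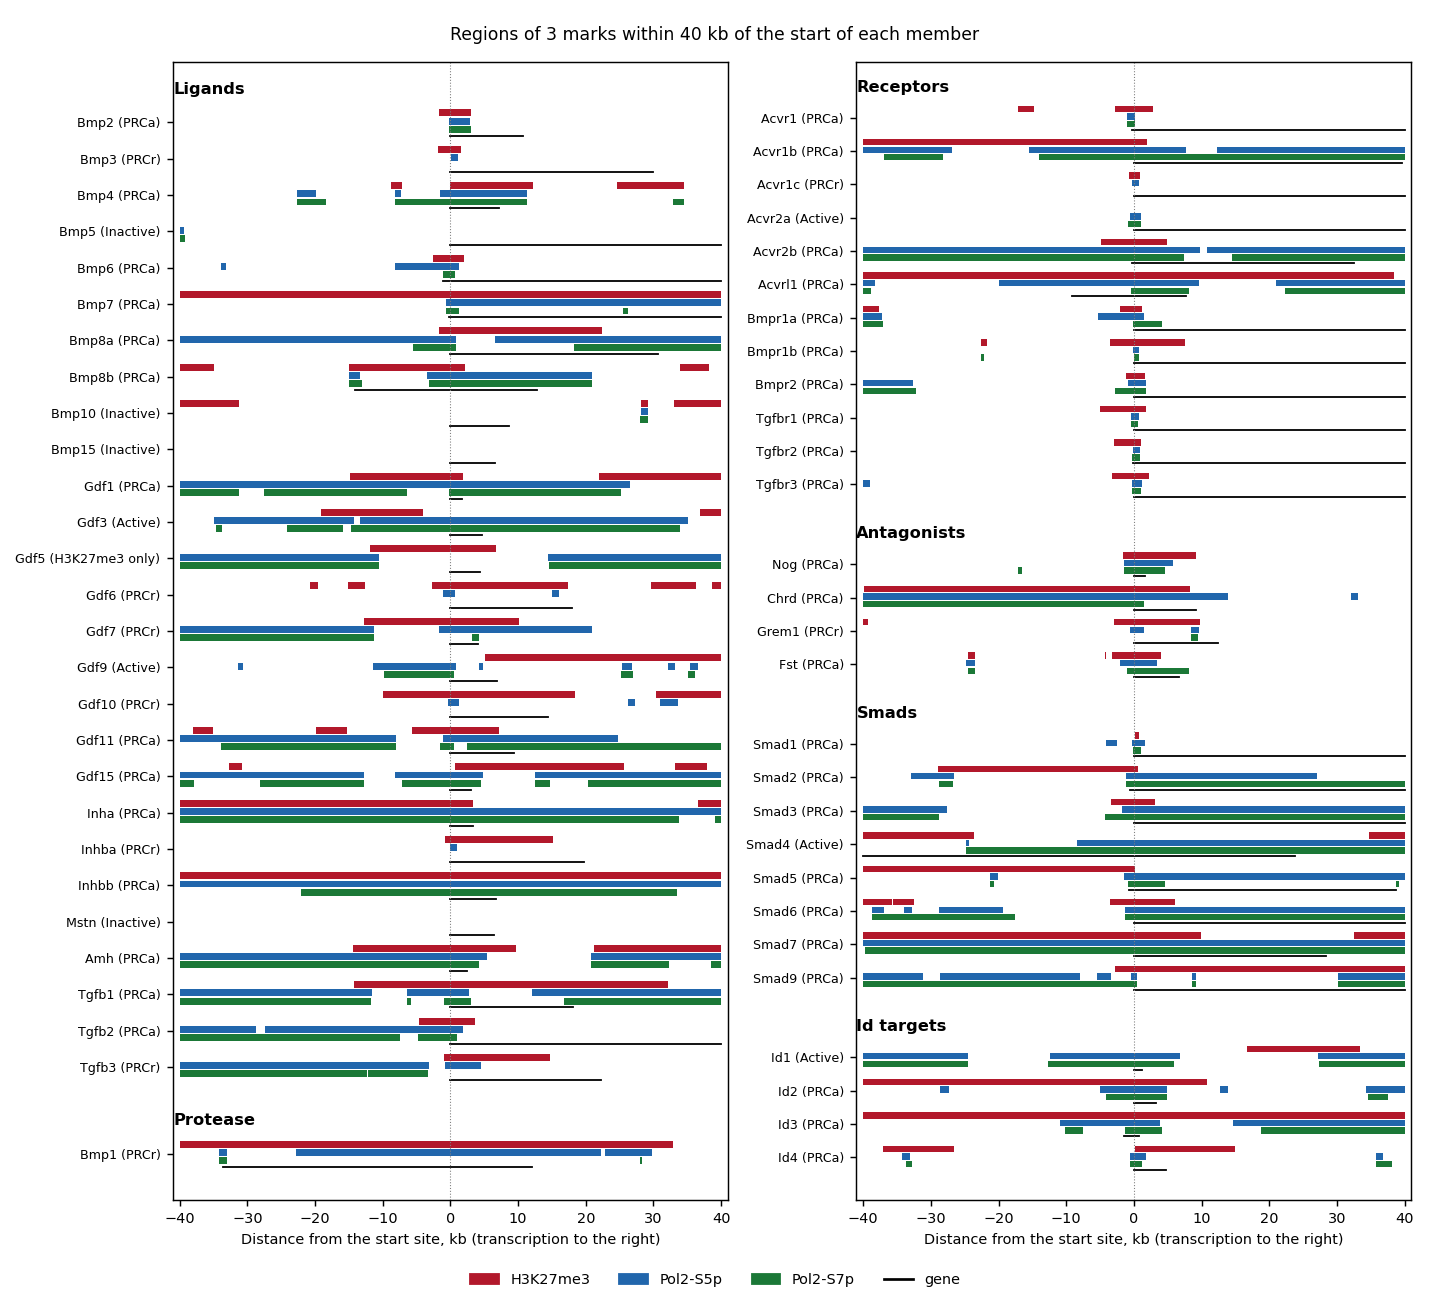
Regions of H3K27me3 (red), Pol2-S5p (blue) and Pol2-S7p (green) from 40 kb before to 40 kb after the start used for each of the 56 members (horizontal axis, distance in kb, transcription to the right), grouped by role with the promoter state after the gene name; black lines are the annotated genes. Bmp15 and Mstn show no region, many receptors show only narrow regions at the start, and the rows of Inhbb and Smad7 are largely filled by wide regions.

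Among the ligands, the widest domains lay at PRCa genes. Inha, which encodes the alpha subunit of inhibin, sat in an H3K27me3 region of 172000 bp (chr1:75338400-75510399) that also held the promoters of 7 other coding genes, among them Des and Speg. Its Pol2-S5p and Pol2-S7p regions were 103000 and 160000 bp wide and held the promoters of 5 and 7 other coding genes. Bmp7, a BMP of kidney and eye development, had an H3K27me3 region of 140800 bp (chr2:172860800-173001599) that extended to Spo11, and a Pol2-S5p region of 91400 bp that covered its whole body. The Pol2-S7p region at the Bmp7 start was in contrast 2000 bp wide, and all Pol2-S7p regions together covered 16.2% of the gene.

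Inhbb, the activin beta B subunit, had an H3K27me3 region of 128800 bp (chr1:119341600-119470399) with no other coding promoter in it, and Pol2-S5p and Pol2-S7p regions of 192400 and 55600 bp. The Pol2-S5p region also held the promoters of Ralb and Tmem185b. At Tgfb1 the H3K27me3 region spanned 46400 bp (chr7:25672800-25719199) and also held the promoters of B9d2, Ccdc97 and Tmem91. The Pol2-S5p and Pol2-S7p regions at its start were 9200 and 4000 bp wide, and that of Pol2-S5p also held the B9d2 promoter. The polymerase regions at the Tgfb1 start therefore ended inside a wider Polycomb domain, whereas the Pol2-S5p regions of Inhbb and Inha ran beyond it.

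The remaining PRCa ligands had H3K27me3 regions between 4600 bp (Bmp6) and 25000 bp (Gdf15). Bmp2, a ligand of the heart and skeleton, had focal regions of all 3 marks, 4800 bp for H3K27me3, 3000 bp for Pol2-S5p and 3200 bp for Pol2-S7p. Its H3K27me3 score, the value of the peak finder in a unit not stated, was 26.5 and ranked at the 98.0th percentile of the list. Bmp4, the BMP ligand most used in stem cell culture, had regions of 12400 bp for H3K27me3, 12800 bp for Pol2-S5p and 19400 bp for Pol2-S7p. All 3 covered 100% of the Bmp4 gene, although H3K27me3 filled only 56.5% of the start window and ended just upstream of the start.

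At the paralogues Bmp8a and Bmp8b, which act in the germline, H3K27me3 covered 73.4 and 60.3% of the gene, with regions of 24200 and 17000 bp. The Pol2-S5p region was 58600 bp wide at Bmp8a and 24400 bp at Bmp8b, and those of Pol2-S7p were 6400 and 24000 bp. The Bmp8b start used was an internal noncoding one, and both its polymerase regions also held the promoters of Oxct2b and Ppie. The Bmp8b coding start, 14159 bp upstream, was also PRCa. There, other polymerase regions ran from 14.9 to 13.3 kb (Pol2-S5p) and from 14.9 to 13.1 kb (Pol2-S7p) before the start used. Polymerase widths of the 2 paralogues were therefore not taken at like starts. Bmp6 and Tgfb2, the longest of the PRCa ligand genes, had H3K27me3 over only 1.99 and 4.32% of their bodies, with regions of 4600 and 8200 bp at the start. Gdf11, a ligand of axial patterning, had 12800 bp of H3K27me3, 25800 bp of Pol2-S5p and 2000 bp of Pol2-S7p at its start. Focal and broad H3K27me3 were thus both found among ligands of 1 state.

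Several PRCa ligand promoters lay in regions shared with neighbours. The Pol2-S5p region at Amh, the anti-Müllerian hormone gene, was 316000 bp wide (chr10:80494600-80810599) and held the promoters of 17 other coding genes. At Gdf1, a ligand that works with Nodal in left-right patterning, the Pol2-S5p region of 137400 bp held 7 other coding promoters, among them Cers1 and Upf1. Gdf15, a stress-responsive ligand, reached the PRCa class by only 17.2% of its window, since its H3K27me3 region began 657 bp inside the gene. Its Pol2-S7p region had a score of 38.8, at the 91.5th percentile of that list.

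PRCr ligands combined H3K27me3 domains of 3400 to 28400 bp with narrower Pol2-S5p regions, although the widths were close at Gdf7 (23000 and 22600 bp). Gdf10 had an H3K27me3 region of 28400 bp (chr14:33913600-33941999) against a Pol2-S5p region of 1600 bp at the start. Gdf6, which patterns joints and the eye, had 20200 bp of H3K27me3 (chr4:9841600-9861799) and 1800 bp of Pol2-S5p. Inhba, the activin beta A subunit, had 16000 bp of H3K27me3 (chr13:16011000-16026999) and 1000 bp of Pol2-S5p. For these 3 genes the nearest Pol2-S7p region lay 159, 133 and 379 kb from the start.

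Gdf7 and Tgfb3 were nearer to Pol2-S7p. Gdf7, a ligand of spinal cord roof plate, had 23000 bp of H3K27me3 (chr12:8291800-8314799) and 22600 bp of Pol2-S5p, and a Pol2-S7p region of 1000 bp began 3155 bp from its start. Tgfb3, a ligand of palate development, had 15600 bp of H3K27me3 (chr12:86064400-86079999) and 5200 bp of Pol2-S5p, with Pol2-S7p 3359 bp away. Bmp3 was the narrowest PRCr ligand, with 3400 bp of H3K27me3 and 1000 bp of Pol2-S5p that began 149 bp past the start.

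The other ligands lacked one or both kinds of mark. Gdf5 lay in 18600 bp of H3K27me3 (chr2:155938600-155957199) with both polymerase forms 10633 bp away. Gdf3, a Nodal-related ligand of pluripotent cells, was Active, with 48400 bp of Pol2-S5p and 48600 bp of Pol2-S7p over the whole gene and an H3K27me3 region 4113 bp upstream. Both polymerase regions at Gdf3 also held the Apobec1 promoter. Gdf9, an oocyte ligand, was Active only at the start of a noncoding transcript, in a Pol2-S5p region of 12200 bp shared with Uqcrq and Leap2. The start of its coding transcript, 2276 bp downstream, had no mark.

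The Inactive ligands were far from any region. For Bmp15, an oocyte ligand, the nearest regions of the 3 marks lay 77.9 to 78.9 kb away, and for Mstn, which restrains muscle growth, 78.6 to 208 kb away. Bmp10, a heart ligand, had its nearest regions at 28.0 to 28.2 kb, where narrow regions of all 3 marks coincided. Bmp5 had its nearest regions at 39.2 to 58.0 kb. No region of any mark covered a base of these 4 genes.

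Bmp1, which encodes a protease that cleaves procollagen and chordin, lay in an H3K27me3 region of 127400 bp (chr14:70453800-70581199) that covered the whole gene. At the start used, an internal noncoding start, Pol2-S5p filled the window and Pol2-S7p was lacking, which gave PRCr. At the start of the coding transcript, 33549 bp upstream, H3K27me3 filled the window and each polymerase form covered 60% of it, which gives PRCa.

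Regions at receptor promoters were narrow at many but not all genes. H3K27me3 regions at receptors had a median width of 5600 bp, against 16800 bp at all H3K27me3-positive coding promoters. Regions over 10 kb accounted for 3 of 11 receptors (27.3%, 6.02 to 61.0%) and 58.3% of coding promoters, a share that the interval includes. Of these 3 receptors, Acvr1b and Acvrl1 lay in the same region. For ligands the share was 17 of 21 (81.0%, 58.1 to 94.6%) and the interval just reached the share of all genes. Pol2-S5p regions of at most 2 kb were found at 7 of 12 receptors (58.3%, 27.7 to 84.8%), at 4 of 22 ligands (18.2%) and at 26.4% of coding promoters with Pol2-S5p. For Pol2-S7p the counts were 6 of 11 receptors (54.5%, 23.4 to 83.3%) and 24.9% of coding promoters, which the interval includes.

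Tgfbr1, the type I receptor for TGF-beta, had an H3K27me3 region of 6800 bp around regions of 1200 bp for Pol2-S5p and 1000 bp for Pol2-S7p. The scores of the polymerase regions, 52.4 for Pol2-S5p and 60.8 for Pol2-S7p, were the highest of any member and ranked at the 95.9th and 98.0th percentiles of their lists, while the H3K27me3 score of 6.98 ranked at the 36.7th. The type II receptor gene Tgfbr2 had 4000, 1000 and 1200 bp of H3K27me3, Pol2-S5p and Pol2-S7p. Tgfbr3, the co-receptor betaglycan, had 5400, 1400 and 1200 bp in the same order. All 3 TGF-beta receptor genes thus showed narrow polymerase regions inside an H3K27me3 region a few kilobases wide.

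Among BMP receptors, the type II gene Bmpr2 had 2800 bp of H3K27me3, 2600 bp of Pol2-S5p and 4600 bp of Pol2-S7p. Acvr1, a type I receptor, had 5600, 1200 and 1200 bp of the 3 marks in that order, and Bmpr1a, another type I receptor, had 3200, 6800 and 4200 bp. Bmpr1b had a wider H3K27me3 region of 11200 bp (chr3:142161800-142172999) with 1000 bp of Pol2-S5p and 800 bp of Pol2-S7p. Polymerase regions outreached H3K27me3 at Bmpr1a, whereas H3K27me3 was the wider mark at Acvr1 and Bmpr1b.

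A contrasting pair was Acvr1b, the activin type I receptor, and Acvrl1, a type I receptor of endothelium, which lay in the same H3K27me3 region of 261000 bp (chr15:100915000-101175999). They were the only members found in a common H3K27me3 region, so their values for this mark are not separate observations. This region ended 1932 bp past the Acvr1b start and covered 4.88% of Acvr1b, but 100% of Acvrl1. Acvrl1 was PRCa only at an internal noncoding start, and its coding starts were PRCr. Acvr2b, an activin type II receptor, had 9800 bp of H3K27me3 within 72800 bp of Pol2-S5p and 70400 bp of Pol2-S7p. Both polymerase regions began 63.0 kb upstream of the start and also held the promoters of Acaa1a, Myd88, Slc22a14 and Xylb.

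Acvr1c, a type I receptor for Nodal and activin, was the PRCr receptor, with 1600 bp of H3K27me3 (chr2:58357000-58358599) and 1000 bp of Pol2-S5p. Its neighbour Acvr1 lies on the same chromosome, and the Pol2-S7p region nearest to the Acvr1c start, 209 kb away, was the one at the start of Acvr1. Acvr2a, the activin type II receptor, was Active, with 1600 bp of Pol2-S5p and 2000 bp of Pol2-S7p and the nearest H3K27me3 region 492 kb away. Acvr2a and its paralogue Acvr2b thus had different states, Active and PRCa.

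All 4 antagonists carried H3K27me3 and Pol2-S5p. Chrd, which encodes chordin, had an H3K27me3 region of 48200 bp (chr16:20693200-20741399) and polymerase regions of 70000 bp (Pol2-S5p) and 57800 bp (Pol2-S7p), each shared with Clcn2, Fam131a, Polr2h and Thpo. Nog, which encodes noggin, had 10800, 7200 and 6000 bp of H3K27me3, Pol2-S5p and Pol2-S7p, and Fst, which encodes follistatin, had 7200, 5400 and 9200 bp. Nog was covered in full by all 3 marks. Grem1, which encodes gremlin, had 12800 bp of H3K27me3 (chr2:113748800-113761599), 2000 bp of Pol2-S5p and Pol2-S7p first at 8447 bp from the start, and was PRCr.

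Pol2-S5p regions over 10 kb were found at 6 of 8 Smads (75.0%, 34.9 to 96.8%) and at 57.5% of coding promoters with Pol2-S5p, which the interval includes. Smad1 and Smad9 had narrow Pol2-S5p regions. Smad7, the inhibitory Smad induced by the pathway, had an H3K27me3 region of 54000 bp (chr18:75323400-75377399), a Pol2-S5p region of 249000 bp and a Pol2-S7p region of 264400 bp, both above the 99th percentile of width in their lists. No other coding promoter lay in these regions. Smad6, the other inhibitory Smad, had 9600 bp of H3K27me3 and polymerase regions of 75200 and 75000 bp that covered the whole gene. H3K27me3 covered 34.7% of Smad7 and 10.5% of Smad6.

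Of the BMP-activated Smads, Smad9 had 45800 bp of H3K27me3 (chr3:54752800-54798599) over 94.2% of its body, with a Pol2-S5p region of only 800 bp at the start. Its Pol2-S7p region of 65600 bp ended 417 bp past the start and also held the promoters of Alg5, Exosc8, Gm21958 and Supt20. With at least 50% of the window covered, Smad9 had H3K27me3 and Pol2-S7p without Pol2-S5p. Smad5 lay at the end of an H3K27me3 region of 99000 bp (chr13:56604800-56703799) that reached 131 bp past the start. Smad1 had the narrowest H3K27me3 region of all members, 600 bp, beginning 119 bp past the start and filling 30% of the window, with a Pol2-S7p score of 45.9 at the 94.4th percentile. These 3 paralogues were all called PRCa with H3K27me3 regions of very different width.

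Of the Smads activated by TGF-beta and activin, Smad2 had 29600 bp of H3K27me3 (chr18:76213200-76242799), 28200 bp of Pol2-S5p and 48800 bp of Pol2-S7p. Smad3 had 6600 bp of H3K27me3, 157600 bp of Pol2-S5p and 47200 bp of Pol2-S7p, and the Pol2-S5p region also held the promoters of Aagab and Iqch. Smad4, the common partner, was called Active at an internal noncoding start within 48600 bp of Pol2-S5p. At the coding start 41005 bp upstream, H3K27me3 filled the window, Pol2-S5p covered 70% and Pol2-S7p 60%, which gives PRCa. Another coding start, 15456 bp upstream, had Pol2-S7p only.

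The Id genes are short, and 3 of the 4 were PRCa. Id3 lay in an H3K27me3 region of 176000 bp (chr4:136074600-136250599) with Asap3, E2f2 and Tcea3, and had 14800 bp of Pol2-S5p and 5600 bp of Pol2-S7p. Id2 had 58200 bp of H3K27me3 (chr12:25086400-25144599), 10000 bp of Pol2-S5p and 9000 bp of Pol2-S7p. At Id4 the H3K27me3 region of 14800 bp (chr13:48261400-48276199) began 172 bp past the start and filled 41.4% of the window. The polymerase regions of Id4, 2400 and 1800 bp wide, lay across the start.

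Id1 differed from its paralogues. It had 19200 bp of Pol2-S5p (chr2:152723800-152742999) and 18600 bp of Pol2-S7p over the whole gene, and its nearest H3K27me3 region began 16.7 kb away. The H3K27me3 regions at Id2, Id3 and Id4 were all over 10 kb, and when such wide regions were left out no Id promoter kept H3K27me3.

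**Figure D3:**
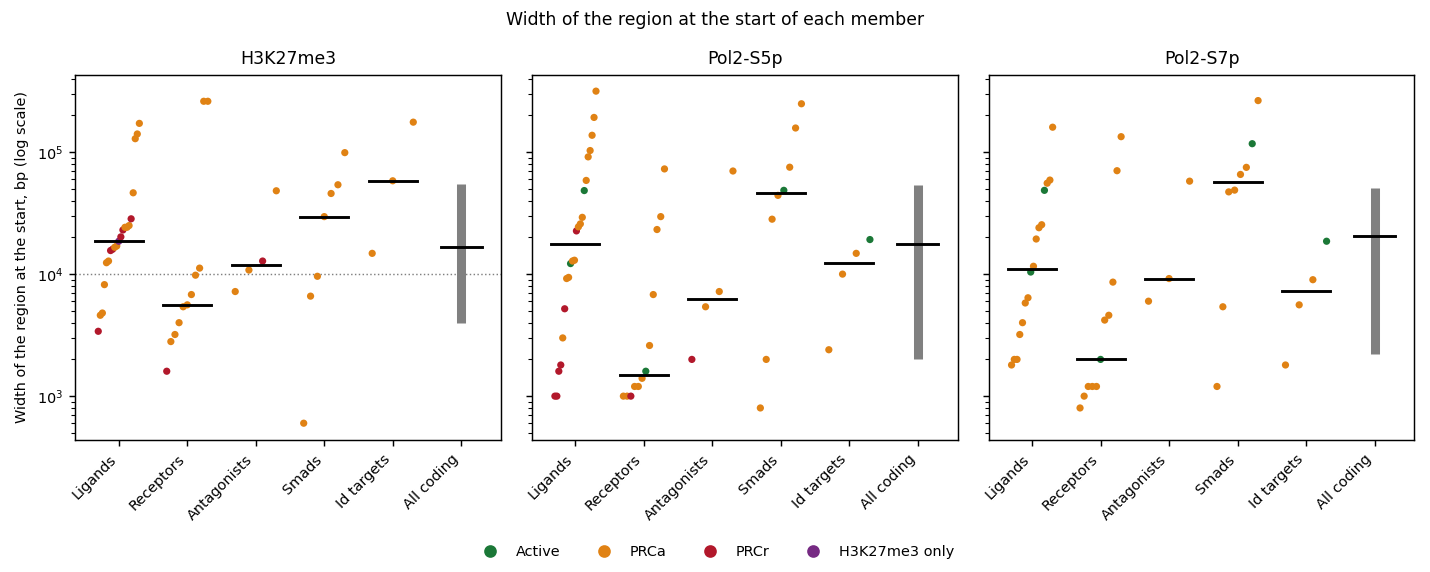
Width in bp (vertical axis, log scale) of the H3K27me3, Pol2-S5p and Pol2-S7p region at the start of each member, by role and coloured by promoter state, leaving out members with no region of that mark and the 1 protease; black lines are medians, the grey bar spans the quartiles of all protein-coding genes with the mark and the dotted line marks 10 kb. The receptor medians are the lowest for all 3 marks, with an H3K27me3 width of 5600 bp, while the H3K27me3 median of ligands is 18600 bp.

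Cover of the gene body also varied with role. The median ligand had 75.5% of its body in H3K27me3, 26.5% in Pol2-S5p and 16.2% in Pol2-S7p. Of 27 ligands, 10 lay in H3K27me3 from end to end, as did 2986 of 21938 protein-coding genes. The median receptor had 2.26, 2.81 and 2.79% in the 3 marks in the same order. H3K27me3 covered under 5% of the body in 10 of 12 receptors, as it did in 14423 of 21938 protein-coding genes. Smads had less H3K27me3 (median 6.70%, against 0% over all protein-coding genes) than Pol2-S5p (81.3%) and Pol2-S7p (62.3%). These Smad medians were 0, 0 and 0.60% once regions at or below the median score were dropped. The medians of ligands exceeded those of receptors for all 3 marks, although single genes of both roles reached full cover. For polymerase this order depended on the processing. Above the median score, ligands had 0% for Pol2-S5p and for Pol2-S7p, against 0.72 and 0.16% in receptors, and among genes of at least 10 kb Pol2-S7p covered 1.19% in ligands, against 2.79% in receptors.

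Over all protein-coding genes the medians were 0% for H3K27me3, 13.2% for Pol2-S5p and 5.37% for Pol2-S7p. At least 50% of the body lay in H3K27me3 for 27 of 56 members (48.2%) and 20.7% of all genes, in Pol2-S5p for 28 members (50.0%) and 39.0% of all genes, and in Pol2-S7p for 20 members (35.7%) and 34.6% of all genes. The Pol2-S7p share was close to that of all genes. Antagonists had median H3K27me3, Pol2-S5p and Pol2-S7p covers of 84.1, 75.2 and 58.0%, and Id genes 98.2, 100 and 97.7%.

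Gene length differed between the roles, with medians of 9424 bp for ligands, 90756 bp for receptors, 62948 bp for Smads, 7960 bp for antagonists, 2800 bp for Id genes and 17425 bp for all protein-coding genes. Among ligands of at least 10 kb the median H3K27me3 cover was 65.7%, while those of Pol2-S5p and Pol2-S7p were 9.06 and 1.19%. All receptors were longer than 10 kb. Short genes had the higher H3K27me3 medians, whereas the long Smads had more polymerase cover than the short ligands, and the part of length in these covers was not tested further.

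**Figure D4:**
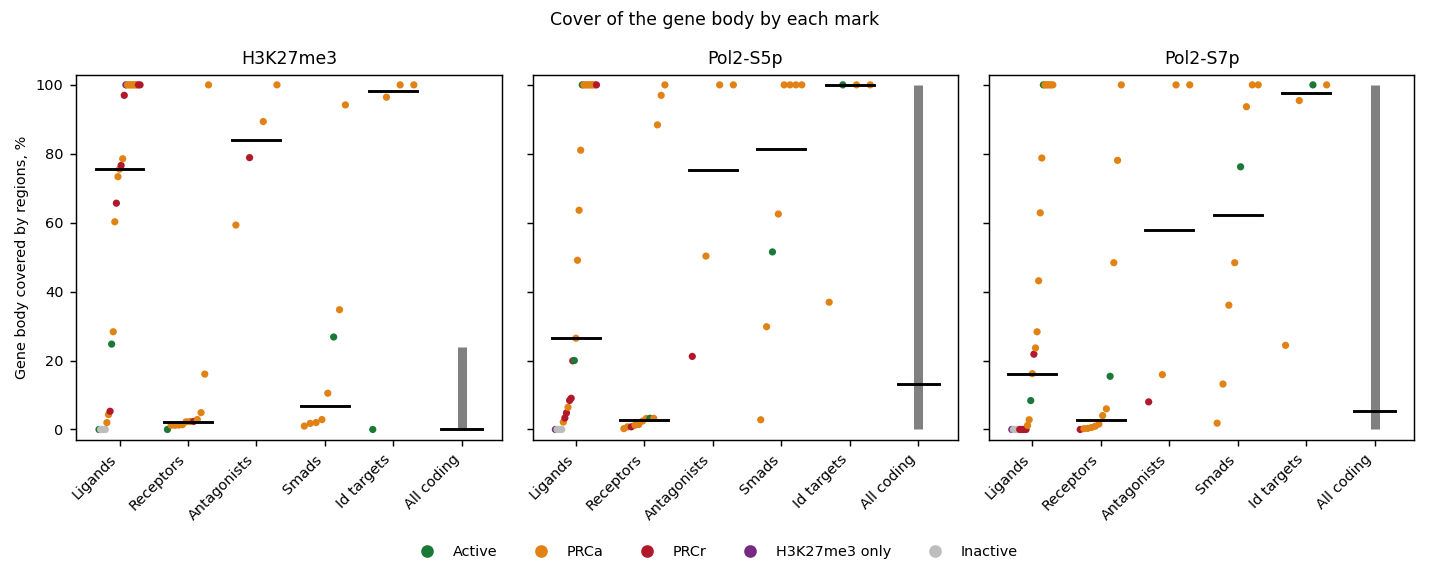
Percentage of the gene body covered by H3K27me3, Pol2-S5p and Pol2-S7p regions (vertical axis) for each member by role, coloured by promoter state and without the 1 protease; black lines are medians and the grey bar spans the quartiles of all protein-coding genes. Most receptors lie near 0 in all 3 panels, with medians of 2.26, 2.81 and 2.79%, and the Smads are spread from near 0 to 100% for Pol2-S5p, with a median of 81.3%.

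Further pathway genes were also mostly PRCa. Of 50 other genes of the pathway, 29 (58.0%, 43.2 to 71.8%) were PRCa, against 23.9% of all protein-coding genes, and 9 (18.0%) were Active, against 35.9%. A further 6 were PRCr, against 7.66%, 4 had H3K27me3 only, against 6.02%, and 2 were Inactive, against 23.5%. H3K27me3 was found at 39 (78.0%, 64.0 to 88.5%), against 37.7%. The list was drawn up with earlier results of these data known. The Active genes included Nodal, the ligand of early patterning, with 121800 bp of Pol2-S5p, its co-receptor gene Tdgf1 (61200 bp) and the ubiquitin ligase genes Smurf1 (97800 bp) and Nedd4l (101600 bp). By contrast the Nodal inhibitor genes Lefty1 and Lefty2 were PRCa in a shared H3K27me3 region of 63200 bp.

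Among target genes of the pathway on this list, Msx1 and Msx2, homeobox genes induced by BMP, were PRCr with 109000 and 75400 bp of H3K27me3, as was Dlx5 with 41600 bp. Of the antagonists, Sost and Chrdl2 had H3K27me3 only, and Cer1 and Sostdc1 were Inactive. Secreted inhibitors on this list were thus found in several states, as Dand5 was Active.

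The state of a member depended on the start, and for more genes on wide or low-scoring regions. Of the 56 members, 37 had several annotated starts, and in 23 of these (62.2%, against 38.4% of coding genes with several starts) the starts did not all share 1 state. With only starts of protein-coding transcripts, an alternative chosen after seeing the data, Smad4 and Bmp1 became PRCa, Acvrl1 became PRCr and Gdf9 became Inactive, which gave 38 PRCa, 9 PRCr, 3 Active and 5 Inactive members. At the start of the longest transcript Acvr1 was Inactive. With the score of each list restricted to values above its median, H3K27me3 remained at 34 member promoters (60.7%, against 24.1% of all genes) and 8 members were PRCa (14.3%, against 8.01% of all genes). Where at least 50% of the window had to be covered, H3K27me3 was found at 44 members (78.6%, against 35.4% of all genes).

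Leaving out H3K27me3 regions over 10 kb left the mark at 16 members (28.6%, against 15.8% of all genes), of which 8 were receptors and 4 ligands. Only Bmp5, Bmp10, Bmp15, Mstn, Acvr2a, Bmpr2 and Tgfbr2 held the same state in all 10 alternatives. A window shared with another gene was found for Gdf9 (Uqcrq), Inha (Obsl1), Acvr1 (Upp2), Tgfb2, Tgfb3, Bmpr1a, Nog, Fst, Smad7 and Id4, the last 7 with noncoding or predicted genes, and which gene of a pair the marks belong to was not tested.

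**Figure D5:**
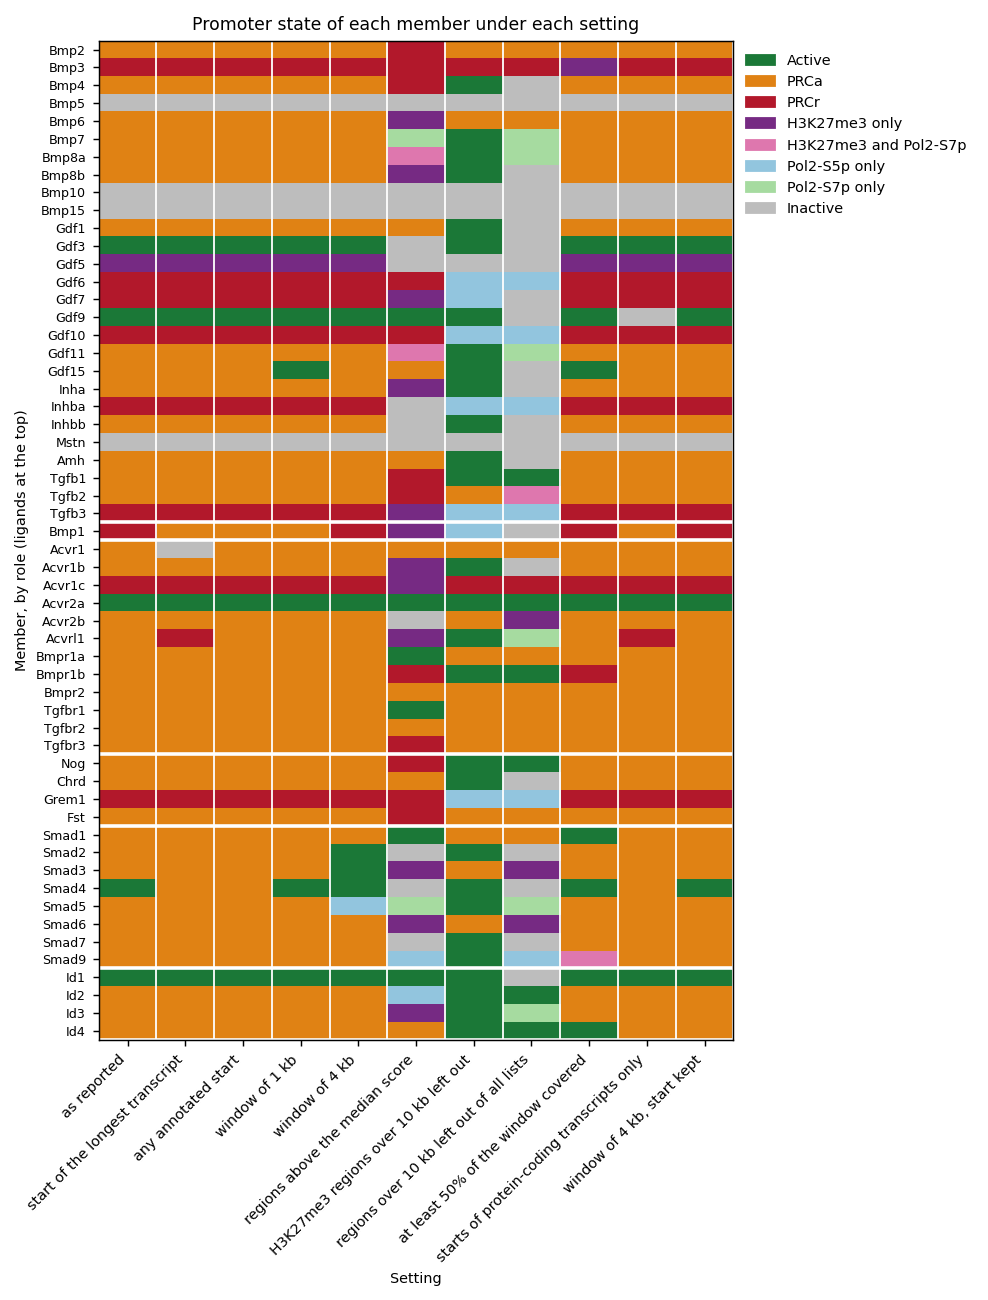
Promoter state (colour) of each of the 56 members (rows, by role) as reported and under 10 alternative settings (columns). The 7 rows of 1 colour throughout are Bmp5, Bmp10, Bmp15, Mstn, Acvr2a, Bmpr2 and Tgfbr2, and most PRCa rows change where regions are restricted by score or by width.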

How the data were processed

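The authors mapped reads to mm10, masked at strain variants, using Bowtie2 2.3.4.3, and called regions for each library separately with a Bayesian change-point method at its defaults. The deposited tables gave each region's position, its width (an other kind of value, in bp) and a score whose unit was not stated, which was used only for ranks and a median filter.

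Starts and genes came from GENCODE M21 on GRCm38 (mm10), and promoter sequences from the RefSeq table. Python 3.11.15, NumPy 2.4.6, SciPy 1.17.1, Matplotlib 3.10.9 and pysam 0.24.0 were used. Start choice followed Pol2-S5p cover, then Pol2-S7p cover, then transcript length. The read thresholds of the study and its exclusion of overlapping genes were not applied. As a check of the code only, states of 1200 of 1200 simulated promoters were recovered. Their regions were planted at a known start of isolated genes, so shared windows were not covered by this check.

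The members and lists were chosen with earlier results of these data known, and with 1 library per mark no test was run. All members were named, with positions for up to 4 per role and state ranked by region width. Members described beyond that rule were chosen after their values were seen. Alternatives changed the start, the window (1 or 4 kb, or at least 50% covered), the score and the width limit.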

Additional observations from a re-analysis of the deposited data

How the results depend on the processing

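Of the values recomputed for counts, covers and widths under the alternatives, 87 stayed within 1.5 times the reported value and 36 did not, and of 560 member states 432 were the same. Without H3K27me3 regions over 10 kb, Active members numbered 28, PRCa 14 and PRCr 2, and H3K27me3 promoters numbered 4 for ligands, 1 for antagonists, 3 for Smads and 0 for Id genes. H3K27me3 was then present at 15.8% of all protein-coding genes. With wide regions left out of all lists, PRCa numbered 10, PRCr 2 and Inactive 22, and the counts by role were again 4, 1, 3 and 0. Above the median score, PRCa numbered 8, Inactive 12 and H3K27me3-positive Smads 2, with H3K27me3 at 24.1% of all protein-coding genes. The median body covers in H3K27me3, Pol2-S5p and Pol2-S7p were then 28.3, 0 and 0% for ligands, 1.25, 0.72 and 0.16% for receptors, and 0, 0 and 0.60% for Smads, and the median Pol2-S5p and Pol2-S7p widths were 2800 and 4400 bp. With at least 50% of the window covered 8 members were Active, and with coding starts 3. Apart from the PRCa counts of 14 and 8, member states counted under the alternatives have no share over all genes beside them. Such counts describe the members only. A window of 4 kb gave 4 H3K27me3-positive Smads when the start was chosen again and 7 when it was kept, so that the change came from the start. For ligands of at least 10 kb the Pol2-S5p and Pol2-S7p covers were 9.06 and 1.19%. Without the start window, receptor covers were 1.31, 1.85 and 1.85%. The cause of the other changes was not tested. No paired analysis was possible because each mark had 1 library. Depth behind regions was not known, so the absence of a region says only that none was called.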
